A study of Rattus norvegicus with 6 samples.

Results

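Histone genes were compared in pancreatic duct glands of HIP and wild-type (WT) Sprague-Dawley rats. Of the 15677 gene symbols in the series, 31 matched a rule on names alone, which takes symbols that start with Hist1h, Hist2h, Hist3h, H1f, H2af, H3f, or H4 followed by the letters of a histone gene. The rule gave 23 replication-dependent genes, whose symbols start with Hist, and 8 variant genes (H1f0, H1foo, H2afj, H2afx, H2afy, H2afy2, H2afz and H3f3b). No symbol matched the H4 form. HIP rats express human islet amyloid polypeptide from a transgene, active in beta cells, and those used here were pre-diabetic. WT rats of the same strain carried no transgene according to the labels. Gland compartments were recognised by their morphology, cut out by laser and sequenced from total RNA with a kit for very low input, in 3 HIP libraries (HIP30, HIP2 and HIP3) and 3 WT libraries (WT26, WT1 and WT4). Ages are not given in the sources used here, and nothing in the labels ties libraries to separate animals, so the spread behind every p-value here may be technical.

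Histones package DNA into nucleosomes, each built from H2A, H2B, H3 and H4, with H1 linker histones between them. Replication-dependent histone genes lie in clusters and are transcribed while DNA is being copied. Most give short mRNAs that end in a stem-loop bound by Slbp and not in a poly(A) tail. Variant histone genes stand apart from the clusters, give polyadenylated mRNAs, and supply histones to cells outside S phase as well. A replication-dependent histone mRNA in a tissue is therefore read as a trace of cells copying DNA. In bulk tissue such as this, fewer cells in S phase and less RNA per cell cannot be told apart.

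Promoters of 4 members are shown because these genes stand for the groups described below. The sequences are those of RefSeq on the GRCr8 build, which is not the rn5 build named for the files, and run over the 200 bases before the annotated start of each gene in its own direction. Capitals mark the octamer ATTTGCAT, the CCAAT box, the TATA motif TATAAA and the H1 box AAACACA, on either strand. Hist1h1b (an H1, now named H1f5; chr17:47421675-47421874, plus strand) and Hist1h2bd (an H2B; chr17:47489009-47489208, minus strand) had no read in HIP30. H2afz (now H2az1; chr2:229028895-229029094, plus strand) is a variant gene that was also low there, and H3f3b (chr10:101757637-101757836, minus strand) is a variant gene that was not.
Hist1h1b: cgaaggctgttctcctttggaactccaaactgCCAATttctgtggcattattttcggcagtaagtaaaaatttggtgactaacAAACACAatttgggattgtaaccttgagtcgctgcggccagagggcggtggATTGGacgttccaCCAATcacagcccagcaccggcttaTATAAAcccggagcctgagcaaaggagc
Hist1h2bd: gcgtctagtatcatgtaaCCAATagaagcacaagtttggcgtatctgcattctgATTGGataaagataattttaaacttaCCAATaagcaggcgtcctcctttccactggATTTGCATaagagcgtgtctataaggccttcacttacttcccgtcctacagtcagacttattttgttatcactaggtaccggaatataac
H2afz: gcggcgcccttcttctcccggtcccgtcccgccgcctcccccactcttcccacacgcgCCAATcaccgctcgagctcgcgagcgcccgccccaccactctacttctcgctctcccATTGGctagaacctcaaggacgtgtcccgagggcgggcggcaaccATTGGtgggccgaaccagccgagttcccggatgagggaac
H3f3b: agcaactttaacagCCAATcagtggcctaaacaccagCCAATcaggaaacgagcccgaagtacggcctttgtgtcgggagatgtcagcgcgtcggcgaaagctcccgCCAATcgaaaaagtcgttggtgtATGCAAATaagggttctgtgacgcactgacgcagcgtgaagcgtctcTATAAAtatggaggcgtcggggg

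Of the 31 genes, 28 matched a single RefSeq gene and 27 had a promoter entry of 300 bases, which reaches from 250 bases before the start to 50 bases after it. Hist1h1d, Hist1h2bh and Hist1h2bl each matched several RefSeq genes, so which current gene each symbol stands for is not settled here. The octamer, bound by Oct factors and known from H2B promoters, was found in 7 of 19 replication-dependent windows and in 1 of 8 variant windows, that of H3f3b, against 1.78% of the 33469 promoters in the table. It stood in 3 of 6 H2B and 4 of 7 H2A windows and in none of the 3 H1, 1 H3 and 2 H4 windows. Hist1h2aa with Hist1h2ba, and Hist3h2a with Hist3h2bb, are neighbours on opposite strands whose windows overlap, so each pair shares bases. The CCAAT box, the site of the NF-Y factor, was found in 17 of 19 replication-dependent windows and in 5 of 8 variant windows, against 37.5% of all promoters. All 17 H1, H2A, H2B and H3 windows held it and neither H4 window did. TATAAA was found in 10 of 19 replication-dependent and 3 of 8 variant windows, against 14.2% of all, and the H1 box, an element of H1 promoters, in 4 of 19 and 1 of 8, against 6.99%. The H1 box stood in 2 of 3 H1, 1 of 7 H2A and 1 of 6 H2B windows. Its H2A and H2B windows were those of Hist1h2aa and Hist1h2ba, which overlap. None of the 4 motifs was found in the windows of H1f0, H2afy, H2afy2, Hist1h4b and Hist1h4m. A match is a description of these letters and does not show that a factor binds.

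The 6 libraries held 15141136 to 17574682 reads on the listed genes, so that 1 read was worth 0.0569 to 0.0660 CPM (reads divided by the library total and scaled up). Counts of 0 allow up to 3 reads, which is 0.171 to 0.198 CPM, and this limit covers counting error only. The ribosomal RNA precursor Rn45s, another RNA without a poly(A) tail, took 2.29%, 4.88% and 3.92% of reads in HIP30, HIP2 and HIP3, against 2.10%, 2.72% and 3.98% in WT26, WT1 and WT4. Summed markers of duct epithelium, 9 of 12 measured, were abundant in all libraries, at 10793 to 13055 CPM in HIP and 11153 to 25880 CPM in WT. In what follows, values of single libraries stand in the order HIP30, HIP2 and HIP3 for HIP, and WT26, WT1 and WT4 for WT. The cell type lists below moved between libraries too, and their part in the histone results was not tested.

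Reads of the replication-dependent genes were few in 2 HIP libraries and at the WT level in the other HIP library. Summed over the 23 genes they made 155, 346 and 1067 CPM in HIP libraries, against 666, 1168 and 805 CPM in WT. HIP30 and HIP2 lay below all WT libraries, while HIP3 lay between WT4 and WT1, so the groups overlap. The means were 522 ± 481 CPM in HIP and 880 ± 259 CPM in WT (SD, n = 3 each). The 8 variant genes together made 1094, 1048 and 1343 CPM in HIP libraries, against 1495, 1438 and 1264 CPM in WT, or 1162 ± 159 CPM in HIP and 1399 ± 120 CPM in WT (SD, n = 3 each). The variant sums also overlap, through HIP3 and WT4, and they ran over a narrower range than the replication-dependent sums.

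The share of all histone reads on replication-dependent genes does not depend on how a library is scaled. It was 12.4% in HIP30 (95% exact binomial interval 11.9% to 12.9%), 24.8% in HIP2 (24.2% to 25.4%) and 44.3% in HIP3 (43.8% to 44.8%). In WT it was 30.8% in WT26 (30.4% to 31.3%), 44.8% in WT1 (44.4% to 45.3%) and 38.9% in WT4 (38.4% to 39.4%). The intervals are narrow because each library held 18900 to 45471 histone reads, and they cover counting error only. HIP30 and HIP2 lay under the lowest WT library and HIP3 within the WT range. The group means were 27.2% ± 16.1 in HIP and 38.2% ± 7.03 in WT (SD, n = 3 each), a difference of -11.04 percentage points that is smaller than the SD within HIP. It was -3.65 points without HIP30 and -19.6 points without HIP3.

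**Figure D1:**
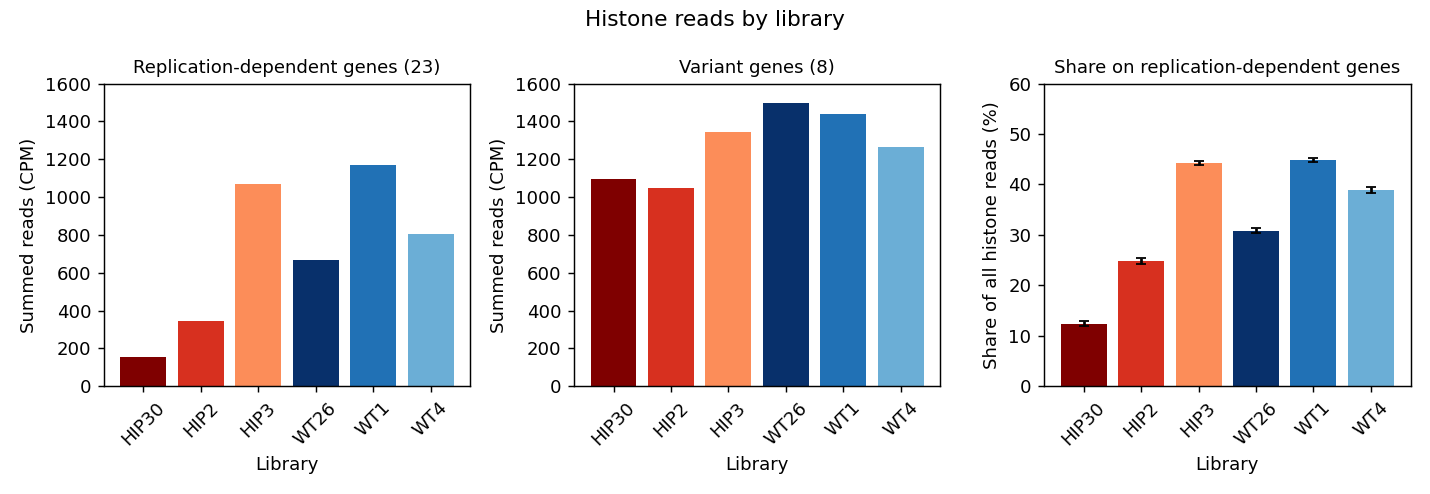
Summed reads of replication-dependent and of variant histone genes in CPM, and the share of histone reads on replication-dependent genes in percent with exact 95% binomial intervals, for each HIP and WT library. The share ran from 12.4% in HIP30 to 44.3% in HIP3, against 30.8% to 44.8% in WT.

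Gene by gene, the same libraries stood apart. In HIP30, 20 of the 23 replication-dependent genes were below the WT range, against 18.6% of all symbols listed once, and 12 had no read, against 15.6%. In HIP2, 17 of 23 were below the WT range, against 18% of all, and 2 had no read, against 13.7%. In HIP3, 0 were below the WT range, against 15.7% of all, 17 were within it and 6 were above it, against 18.2%. HIP30 was the lowest of the 6 libraries for 18 of the 19 genes that passed the filter on low reads, and in 15 of the 19 HIP2 was next. Among the WT libraries, WT1 was highest for 14 of the 19. The median gene differed from the WT mean by -3.94 in HIP30, -1.47 in HIP2 and 0.30 in HIP3, in log2 units of CPM plus 2 reads (0.121 CPM), a scale that understates the change of low genes.

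Differences between the groups were fitted with limma over all 12102 genes that passed the filter, on the same log2 scale. All 19 tested replication-dependent genes had a negative HIP minus WT difference, with a median of -1.59 and a range from -4.15 to -0.26, while 5923 of all 12102 genes were negative and the median of all genes was 0.0097. None of the 19 passed an adjusted p of 0.05, where limma called 0% of all genes (792 genes had an unadjusted p under 0.05; limma-voom also called 0 and had 914). An unadjusted p under 0.05 with lower values in HIP was reached by 2 of the 19 (Hist1h1a and Hist1h2bl), against 3.26% of all genes. In 0 of the 19 did every HIP library lie below every WT library, which was so for 4.27% of all genes. The median difference was -0.47 without HIP30, with 16 of 19 genes negative, and -2.78 without HIP3, where 15 of 19 genes had an unadjusted p under 0.05 with lower values in HIP, against 8.92% of all genes in that fit, and the lowest adjusted p among the 19 was 0.149. Neighbouring histone genes are near copies of each other, and reads that fit several of them could not be assigned here with certainty.

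**Figure D2:**
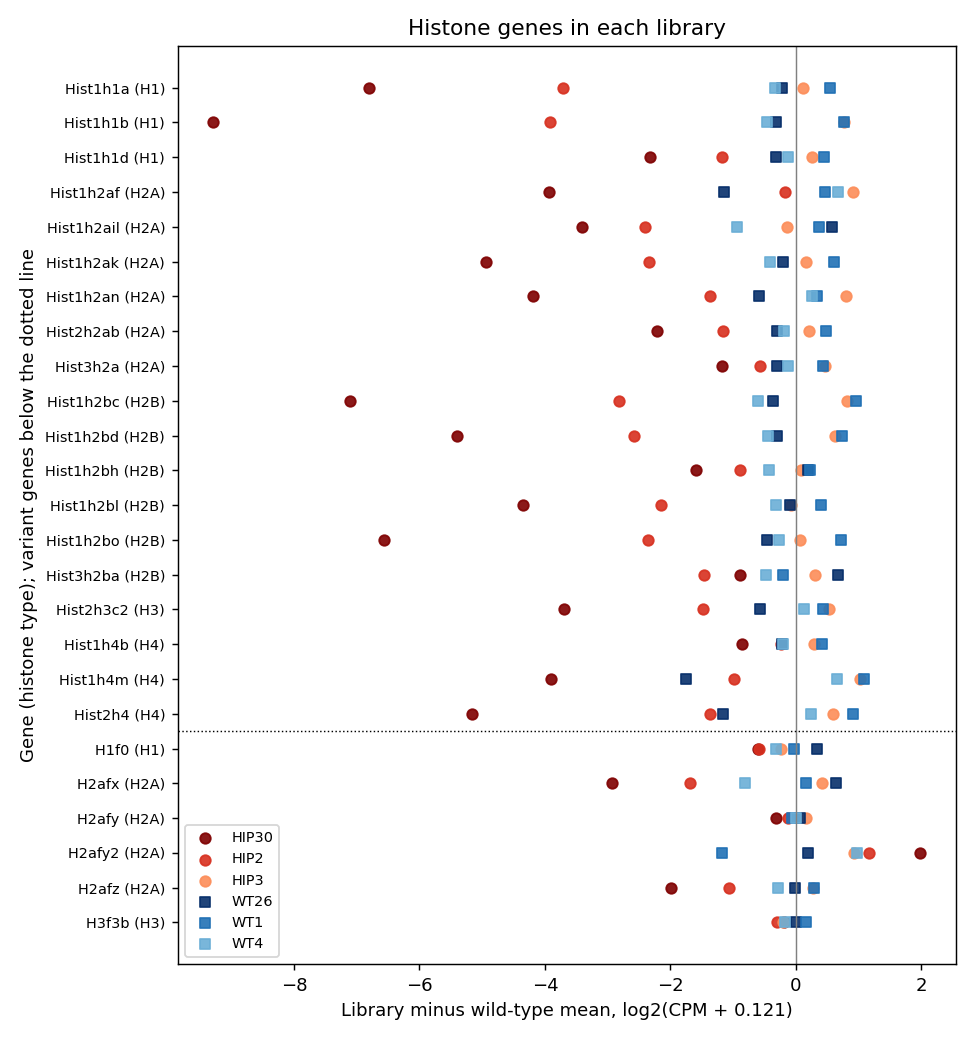
Each library minus the WT mean on the log2 scale, for the 19 tested replication-dependent genes (above the dotted line) and 6 tested variant genes (below it). HIP30 lies at the left in 18 of 19 replication-dependent rows, and HIP3 near the WT libraries in all of them.

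Linker histones took most of the replication-dependent reads, in reads not corrected for gene length. Hist1h1d, an H1 of the large cluster, had 94.3, 196 and 508 CPM in HIP libraries, against 332, 555 and 413 CPM in WT. It alone took 61.0%, 56.8% and 47.6% of the replication-dependent reads in HIP30, HIP2 and HIP3, against 49.9%, 47.5% and 51.3% in WT26, WT1 and WT4. Its share was thus highest where the class was lowest. The symbol Hist1h1d matched no single RefSeq gene. Hist1h1b had 0, 4.97 and 126 CPM in HIP libraries, against 58.2, 121 and 57.4 CPM in WT. Hist1h1a, now named H1f1, had 0, 0.93 and 14.2 CPM in HIP libraries, against 11.04, 18.5 and 11.1 CPM in WT. In both genes HIP30 was under the limit that a count of 0 allows and HIP2 held under 7% of the WT mean (6.30% and 6.89%), while HIP3 was at 159% and 105% of it. The fitted differences were -1.08 ± 0.57 for Hist1h1d, -4.15 ± 2.09 for Hist1h1b and -3.47 ± 1.48 for Hist1h1a (SE), each with an adjusted p of 0.691 in limma. The testis H1, Hist1h1t, had at most 9 reads in any library.

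Of the 7 H2A genes, 6 passed the filter, with a median difference of -1.33. Hist3h2a, from the small Hist3 cluster, had 9.77, 14.0 and 27.7 CPM in HIP libraries, against 15.8, 25.8 and 19.5 CPM in WT. Its difference was -0.43 ± 0.44 (SE; adjusted p = 0.849 in limma), among the smallest of the class, and HIP30 kept 48.0% of the WT mean. The other H2A genes tested, Hist1h2af, Hist1h2ail, Hist1h2ak, Hist1h2an and Hist2h2ab, stayed under 6 CPM in every library and had differences of -2.37 (Hist1h2ak) to -1.06 (Hist2h2ab). Hist1h2ail is placed with H2A by its symbol, although RefSeq lists an H3 name among its synonyms. Hist1h2aa, known from testis, had at most 13 reads.

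H2B genes ranged from unseen to partly kept in HIP30. Hist1h2bc had 0, 2.30 and 28.7 CPM in HIP libraries, against 12.4, 30.4 and 11.4 CPM in WT. Hist1h2bo had 0, 2.17 and 11.7 CPM in HIP libraries, against 7.85, 17.7 and 9.86 CPM in WT. Both were unseen in HIP30 and within the WT range in HIP3. Hist1h2bl had 3.17, 14.0 and 57.3 CPM in HIP libraries, against 55.3, 76.4 and 52.0 CPM in WT. Its difference of -2.19 ± 0.91 (SE) had the lowest unadjusted p of the class, 0.0422, and an adjusted p of 0.691 in limma. Hist1h2bh had 30.7, 46.8 and 88.6 CPM in HIP libraries, against 94.2, 93.7 and 66.2 CPM in WT. Here HIP30 kept 36.3% of the WT mean and the difference was -0.80 ± 0.41 (SE; adjusted p = 0.691 in limma), against -3.04 ± 1.69 for Hist1h2bc and -2.95 ± 1.45 for Hist1h2bo. The 6 tested H2B genes had a median difference of -2.32, with Hist1h2bd at -2.45 and Hist3h2ba at -0.68, while Hist1h2ba and Hist3h2bb had at most 5 reads in any library. Hist1h2bl and Hist1h2bh, like Hist1h1d, matched no single RefSeq gene.

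The only H3 gene of the class, Hist2h3c2, had 0.79, 3.91 and 15.4 CPM in HIP libraries, against 6.999, 13.9 and 12.4 CPM in WT. HIP30 held 7.15% and HIP2 35.3% of the WT mean, and HIP3 stood above the 3 WT libraries. Among the H4 genes, Hist2h4 had 2.64, 35.8 and 135 CPM in HIP libraries, against 39.0, 161 and 112 CPM in WT. HIP2 and WT26 lay close together for this gene. Hist1h4m had 0.81 CPM in HIP2 and 0.40 CPM in WT26, from 13 and 7 reads. Hist1h4b had 11.2, 16.1 and 22.5 CPM in HIP libraries, against 15.3, 23.4 and 16.9 CPM in WT. Its difference of -0.26 ± 0.37 (SE; adjusted p = 0.896 in limma) was the smallest of the 19, against -1.98 ± 1.28 for Hist2h4 and -1.55 ± 0.95 for Hist2h3c2. Without HIP30 the differences of Hist1h4b, Hist1h4m and Hist1h2af were 0.04, 0.02 and 0.37.

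The replication-dependent genes thus did not lose the same part of their reads in HIP30. Hist1h4b, Hist3h2ba, Hist3h2a, Hist1h2bh, Hist1h1d and Hist2h2ab kept 20.8% to 60.5% of the WT mean there, and the other 13 tested genes at most 7.15% as measured. For the 9 of the 13 without a read the limit of 3 reads allows 0.251% to 16.03% of the WT mean, with the highest for Hist1h2ail. This split was made after the values were seen and is a description. Summed, the 6 genes made 148, 276 and 653 CPM in HIP libraries, against 463, 704 and 521 CPM in WT. The 13 genes made 6.67, 69.2 and 413 CPM in HIP libraries, against 202, 463 and 283 CPM in WT. In HIP2 the 6 genes had a median of 50.3% of the WT mean and the 13 genes one of 18.4%, and in HIP3 both medians were above the WT mean, at 118% and 139%. Of 155 CPM of replication-dependent reads in HIP30, 148 CPM were thus on 6 genes. Hist1h1d and Hist1h2bh, which matched no single RefSeq gene, are among these 6.

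**Figure D3:**
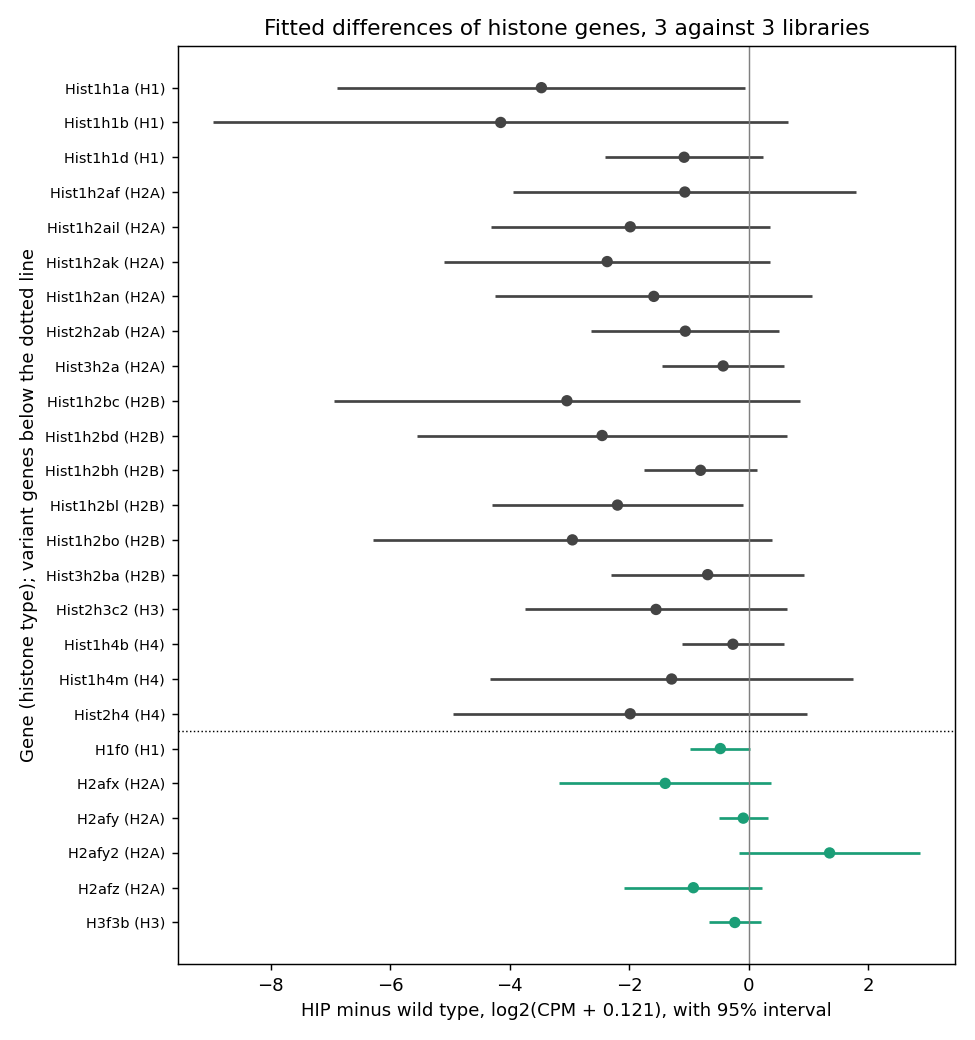
Fitted HIP minus WT difference of each tested histone gene on the log2 scale with its 95% interval from limma, over 3 libraries per group. All 19 replication-dependent genes lie left of 0, from -4.15 to -0.26, and the intervals of 17 of them cross 0.

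The variant genes differed in how far HIP30 and HIP2 lay from the WT mean. In HIP30 and HIP2, H2afx stood at 13.6% and 30.4% of it, H2afz at 27.9% and 49.8%, H1f0 at 72.9% and 68.8%, H2afy at 89.6% and 95.8%, and H3f3b at 97.4% and 84.7%. H2afx, the H2A that is phosphorylated around DNA breaks, has an mRNA made both with a stem-loop and with a poly(A) tail. It had 16.9, 37.8 and 156 CPM in HIP libraries, against 178, 125 and 70.8 CPM in WT. H2afz, the H2A.Z placed at promoters, had 38.2, 68.1 and 164 CPM in HIP libraries, against 132, 159 and 119 CPM in WT. Both were lowest in HIP30 and next lowest in HIP2, as for most replication-dependent genes, and above the WT mean in HIP3. The group means were 70.2 ± 75.02 CPM in HIP and 124 ± 53.4 CPM in WT for H2afx, and 90.1 ± 65.7 CPM in HIP and 137 ± 20.4 CPM in WT for H2afz (SD, n = 3 each). The differences, -1.40 ± 0.77 and -0.92 ± 0.50 (SE), each had an adjusted p of 0.691 in limma.

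H3f3b, which encodes the replacement histone H3.3 that is deposited throughout the cell cycle, had 704, 612 and 631 CPM in HIP libraries, against 709, 773 and 688 CPM in WT. After TMM scaling every HIP library lay below every WT library for this gene, which was so for 1 of the 6 tested variant genes and 4.27% of all genes, but in CPM of the library total HIP30 lay above WT4. Its difference was -0.23 ± 0.19 (SE; adjusted p = 0.798 in limma). H2afy, which encodes a macroH2A of silent chromatin, had 137, 146 and 171 CPM in HIP libraries, against 156, 140 and 162 CPM in WT. Its difference of -0.09 ± 0.18 had a 95% interval from -0.50 to 0.32, and it was 0.03 without HIP30. The groups overlapped for H2afy on either scale.

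H1f0, a linker histone of non-dividing and differentiated cells, had 189, 179 and 217 CPM in HIP libraries, against 319, 241 and 219 CPM in WT. In CPM every HIP library lay below every WT library, narrowly for HIP3, while after TMM scaling HIP3 and WT4 overlapped. The difference was -0.47 ± 0.22 (SE; adjusted p = 0.691 in limma). H2afy2, the second macroH2A gene, had 8.19, 4.29 and 3.47 CPM in HIP libraries, against 1.99, 0.69 and 3.86 CPM in WT. It was the only tested histone gene with a positive difference, 1.36 ± 0.66 (SE; adjusted p = 0.691 in limma), and HIP3 lay below WT4. H2afj and the oocyte H1, H1foo, had at most 19 reads in any library and were not tested. Over the 6 tested variant genes 5 differences were negative, the median was -0.35, and 0 had an unadjusted p under 0.05, against 3.26% of all genes lower and 3.29% higher in HIP.

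**Figure D4:**
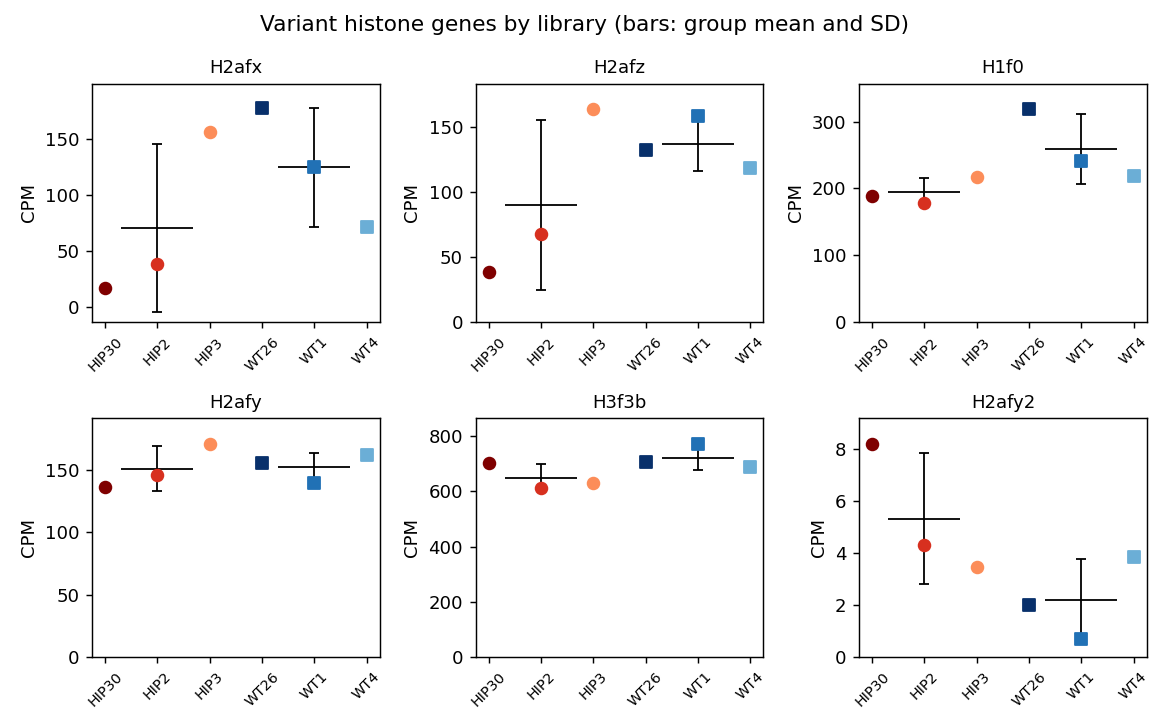
CPM of the 6 tested variant histone genes in each HIP library (circles) and WT library (squares), with group mean and SD (n = 3 each). H2afx, H2afz and H2afy are lowest in HIP30, at 16.9, 38.2 and 137 CPM, with WT means of 124, 137 and 152 CPM.

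Genes that make and process histone mRNA were far less low in HIP30 and HIP2 than the replication-dependent genes. Summed, the list made 1542, 1673 and 1937 CPM in HIP libraries, against 1753, 1902 and 1714 CPM in WT. HIP30 and HIP2 thus lay below the WT range here too, by little. Of 40 listed genes of histone transcription and 3′ end processing, 30 were tested, 19 were negative, and the median difference was -0.09. The list passed an adjusted p of 0.05 for 0 genes and an unadjusted p for 1 gene lower in HIP, where 3.26% of all genes did. Npat, the coactivator of histone gene clusters, had 111, 169 and 194 CPM in HIP libraries, against 120, 181 and 156 CPM in WT. Casp8ap2 (FLASH), its partner in the histone locus body, had 93.3, 131 and 163 CPM in HIP libraries, against 128, 158 and 129 CPM in WT. Slbp, the stem-loop binding protein, had 42.5, 38.6 and 62.7 CPM in HIP libraries, against 76.3, 59.0 and 53.2 CPM in WT. HIP30 lay below the WT range for Npat, Casp8ap2 and Slbp, and HIP2 for Slbp, by far less than for most replication-dependent histone mRNAs. The differences were -0.04 ± 0.28 for Npat, -0.20 ± 0.26 for Casp8ap2 and -0.48 ± 0.27 for Slbp (SE; adjusted p = 0.983, 0.888 and 0.694 in limma).

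Among the genes of this list that drive entry into S phase, Ccna2, Ccne1 and E2f1 had no read in HIP30. Cdk2 and Ccne2 lay below the WT range there by far less, and Cdk2 was lowest in HIP2. Cyclin A2 (Ccna2) had 0, 19.9 and 107 CPM in HIP libraries, against 91.0, 126 and 79.6 CPM in WT. E2f1, a transcription factor of S phase genes, had 0, 2.98 and 11.2 CPM in HIP libraries, against 28.5, 13.9 and 11 CPM in WT. Cdk2, the kinase that activates Npat, had 53.6, 47.9 and 60.7 CPM in HIP libraries, against 88.0, 69.2 and 61.9 CPM in WT. Cyclin E2 (Ccne2), which pairs with Cdk2, had 43.9, 47.4 and 66.4 CPM in HIP libraries, against 45.35, 59.6 and 53.4 CPM in WT. Cyclin E1 (Ccne1), a gene of few reads, had 0, 1.68 and 8.38 CPM in HIP libraries, against 4.04, 5.56 and 1.58 CPM in WT. Its difference was -1.51 ± 1.42 (SE; adjusted p = 0.826 in limma). For the others the differences were -3.96 ± 2.10 for Ccna2, -3.38 ± 1.46 for E2f1, -0.50 ± 0.22 for Cdk2 and -0.09 ± 0.25 for Ccne2 (SE; adjusted p = 0.691, 0.691, 0.691 and 0.951 in limma). When the list was divided by role, a step taken after the values were seen, the 12 genes of the histone locus body and 3′ end processing had a median of -0.13 and the 6 cyclin, kinase and E2F genes one of -1.01.

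Histone chaperones, the proteins that carry histones to DNA, were low in HIP30 and HIP2 only in part. Of 37 listed, 32 were tested, 23 were negative, the median difference was -0.17, and 0 passed an adjusted p of 0.05. Asf1b, a chaperone of H3 and H4 in dividing cells, had 0, 2.42 and 11.7 CPM in HIP libraries, against 21.5, 20.1 and 13.5 CPM in WT. Every HIP library lay below every WT library for Asf1b. After TMM scaling this was so for 3 of the 32 genes, against 4.27% of all genes. For 1 of the 32 every HIP library lay above, against 5.27% of all. Hat1, which acetylates new H4, had 47.75, 54.1 and 63.2 CPM in HIP libraries, against 88.6, 89.2 and 64.7 CPM in WT. These were the 2 genes of the list with an unadjusted p under 0.05, which 3.26% of all genes reached with lower values in HIP, at -3.59 ± 1.44 and -0.62 ± 0.24 (SE; adjusted p = 0.691 in limma). Nasp, which holds the pool of soluble H3 and H4, had 54.9, 65.8 and 84.3 CPM in HIP libraries, against 93.4, 94.8 and 71.2 CPM in WT. Mcm2, a subunit of the replicative helicase that also binds histones, had 20.7, 31.7 and 77.0 CPM in HIP libraries, against 80.3, 70.4 and 64.3 CPM in WT. Mcm2 followed the replication-dependent histone genes, with HIP30 and HIP2 below the WT range and HIP3 within it.

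The H3.3 chaperones did not show the low values of HIP30. Hira, a subunit of the complex that deposits H3.3 in active chromatin, had 5.68, 6.27 and 7.42 CPM in HIP libraries, against 4.15, 5.27 and 6.32 CPM in WT. Daxx, the H3.3 chaperone of heterochromatin, had 52.4, 39.3 and 32.4 CPM in HIP libraries, against 41.6, 30.8 and 37.1 CPM in WT. Both genes overlapped between groups, with differences of 0.23 ± 0.38 for Hira and 0.09 ± 0.23 for Daxx (SE; adjusted p = 0.916 and 0.9496 in limma). By role, again divided after the values were seen, 7 of 7 genes of replication-coupled deposition (Asf1b, Chaf1b, Nasp, Hat1, Tonsl, Mms22l and Mcm2) were negative with a median of -1.04. Of 6 H3.3 deposition genes (Hira, Ubn1, Ubn2, Cabin1, Daxx and Asf1a), 1 was negative and the median was 0.15. The contrast depends on how genes were assigned. Rbbp4 and Rbbp7, at -0.09 and -0.21, were among the tested chaperones placed in neither role, and Asf1a, at 0.06, was counted with the H3.3 genes only. Summed, the replication-coupled genes made 134, 182 and 327 CPM in HIP libraries, against 400, 383 and 275 CPM in WT, and the H3.3 genes made 794, 804 and 781 CPM in HIP libraries, against 696, 673 and 757 CPM in WT.

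Cenpa, the centromeric H3 variant that the symbol rule does not take, had 0, 2.42 and 5.03 CPM in HIP libraries, against 4.67, 6.99 and 5.50 CPM in WT. Its chaperone Hjurp had 43.6, 53.6 and 60.8 CPM in HIP libraries, against 42.6, 67.8 and 60.3 CPM in WT. Cenpa was thus unseen in HIP30 where Hjurp lay within the WT range. The differences were -2.34 ± 1.27 for Cenpa and -0.17 ± 0.26 for Hjurp (SE; adjusted p = 0.691 and 0.907 in limma).

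Genes of DNA copying and of mitosis, when summed, were also lowest in HIP30 and next lowest in HIP2. All 40 listed S phase genes were tested, 39 were negative, the median difference was -0.97, and 7 had an unadjusted p under 0.05 with lower values in HIP, against 3.26% of all genes. Pcna, the sliding clamp of DNA polymerases, had 28.7, 67.0 and 178 CPM in HIP libraries, against 196, 226 and 123.2 CPM in WT. Rrm2, the S phase subunit of ribonucleotide reductase, had 0, 1.37 and 10.4 CPM in HIP libraries, against 24.2, 18.7 and 11.4 CPM in WT. Every HIP library lay below every WT library for Rrm2. After TMM scaling this was so for 2 of the 40 S phase genes, near the 4.27% of all genes. The other genes with the lowest unadjusted p were Rpa2 (-0.98 ± 0.35), Mcm3 (-1.79 ± 0.71) and Prim1 (-1.62 ± 0.67), beside Rrm2 (-3.85 ± 1.40; SE), each with an adjusted p of 0.691 in limma. Of 35 mitosis genes 29 were tested and all 29 were negative, with a median of -3.49 and 3 unadjusted p under 0.05 (Aurka, Kif23 and Kif20a). Mki67, a marker of cycling cells, had 0, 135 and 1152 CPM in HIP libraries, against 753, 961 and 733 CPM in WT. No gene of these lists passed an adjusted p of 0.05.

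Across the WT libraries the histone and S phase values were not in the same order. WT26 had the highest summed S phase CPM of the 6 libraries, 2480 CPM against 2330 CPM in WT1 and 1601 CPM in WT4, but the lowest replication-dependent histone sum of the WT libraries, 666 CPM. Its H2afx, at 178 CPM, was the highest of the 6 libraries. HIP3 had 2084 CPM of S phase genes and 1067 CPM of replication-dependent histone genes. The S phase sums of HIP30 and HIP2 were 750 and 1022 CPM.

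**Figure D5:**
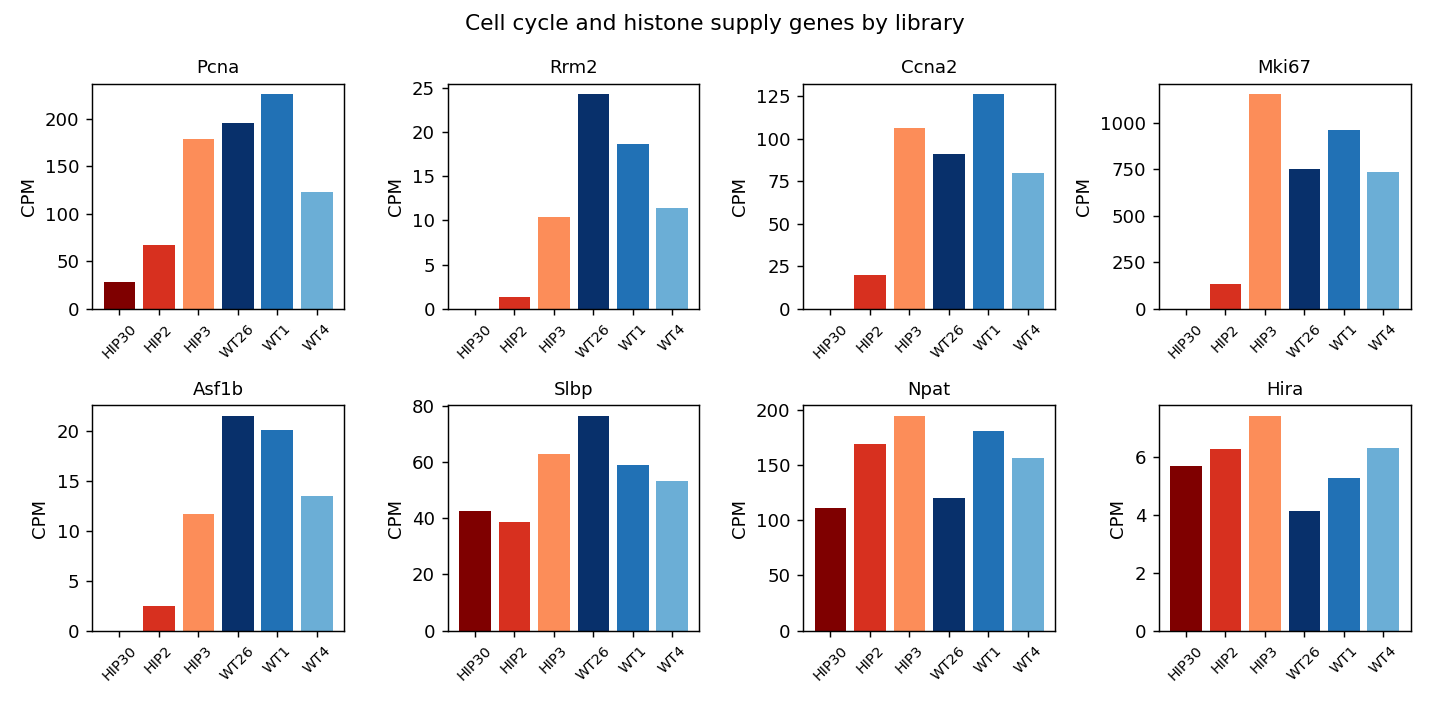
CPM of 4 cell cycle genes (Pcna, Rrm2, Ccna2 and Mki67) and 4 genes of histone supply (Asf1b, Slbp, Npat and Hira) in each HIP and WT library. Rrm2, Ccna2, Mki67 and Asf1b have no read in HIP30, whereas Npat there has 111 CPM and Hira 5.68 CPM.

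Markers of other cell types also differed between libraries. Fibroblast markers, 8 of 8 measured, summed to 479, 798 and 1745 CPM in HIP libraries, against 1380, 1888 and 2315 CPM in WT, and so were lowest in the libraries with the fewest histone reads. Macrophage markers, 7 of 8 measured, summed to 2338, 2200 and 293 CPM in HIP libraries, against 61.5, 263 and 497 CPM in WT. Most of that came from Mpeg1, a macrophage gene with 2096, 1979 and 141 CPM in HIP libraries, against 0, 169 and 192 CPM in WT. The other 6 macrophage markers made 241, 221 and 152 CPM in HIP libraries, against 61.5, 93.7 and 305 CPM in WT. Duct gland mucosa markers, 5 of 8 measured, summed to 626 to 1141 CPM in HIP and 483 to 868 CPM in WT. They did not move together, since HIP30 was the lowest library for the trefoil factor Tff1 and the highest for Tff2, Tff3, Agr2 and Spdef. Beta cell markers, 5 of 7 measured, ran from 0 to 4931 CPM in HIP and from 0 to 11742 CPM in WT and were at 0 in HIP30 and in WT26, of which HIP30 was low in histone reads and WT26 was not. Acinar markers, 7 of 8 measured, summed to 27.9 to 118 CPM in HIP and 22.8 to 78.4 CPM in WT. Lymphocyte markers, 9 of 10 measured, summed to 82.6 to 84.8 CPM in HIP and 56.6 to 115 CPM in WT.

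The library titles fall into numbers 26 and 30 and numbers 1 to 4, which the labels do not call a batch. Between HIP30 and WT26 the median difference of the 19 replication-dependent genes was -3.60, and between HIP2 and HIP3 on one side and WT1 and WT4 on the other it was -0.86. For the 6 variant genes these values were -0.66 and -0.24, and for all genes 0.015 and -0.001. For both classes of histone gene the median was negative within both number series, over 1 library per group in the first. In the second only HIP2 was low. Its replication-dependent median was -1.47 from the mean of all WT libraries, against 0.30 for HIP3.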

How the data were processed

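Gene expression was measured by RNA sequencing in 3 HIP and 3 WT libraries. STAR, HTSeq, edgeR, limma and the rn5 build are named, without versions, order or strandedness, per the submitters' processing notes. The authors deposited log2 values of CPM with a prior for 15679 gene rows per library. Whole reads were recovered for 100% of these deposited log2 values within 0.1 reads. The 4 rows of repeated symbols were left out.

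Reads were scaled by TMM factors (trims of 30% and 5%, factors 0.933 to 1.09), and CPM with 2 average-library reads added were put on a log2 scale and tested with limma 3.58.1 (intensity trend, R 4.3.3) and Benjamini-Hochberg adjustment at 0.05. Genes needed 10 reads at the median library in 3 libraries and 15 in total. The steps were run on simulated data with the same spread setting for every gene and library. That run does not show their power or error at the spread seen within HIP. Printed CPM use library totals, and printed shares have exact binomial intervals at 95% (scipy 1.17.1). Promoters came from RefSeq GRCr8. Coordinates of genes in rn5 were not used here. Figures used matplotlib 3.10.9.

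The members, gene lists and tests were chosen with earlier results of these data known. Values in every library are given for tested variant genes, for replication-dependent genes with a mean of at least 5 CPM, and for related genes fixed by name or with the lowest unadjusted p. The values of Ccne1 were added, and the division of related genes by role was made, later. Alternatives covered scaling, filter, pseudocount, limma-voom, the deposited log2 values, the title numbers and leaving out each library.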

Additional observations from a re-analysis of the deposited data

How the results depend on the processing

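The numbers of genes called, both class medians and the share difference kept their direction and their side of the threshold in all 56 recomputed values, and 0 genes were called under each of the 16 alternative fits. Leaving out 1 library at a time moved the replication-dependent median from -2.78 (without HIP3) to -0.47 (without HIP30), the variant median from -0.47 (without WT4) to -0.26 (without WT26) and the share difference from -19.6 (without HIP3) to -3.65 points (without HIP30). Without HIP3 the smallest adjusted p was 0.0882 over all genes, and without WT4 it was 0.288. Other settings gave replication-dependent medians of -1.98 (deposited log2 values) to -1.13 (pseudocount of 8 reads), and variant medians of -0.37 to -0.28. With no filter the replication-dependent median was -1.29 and 22 of 23 genes lay below 0. The share difference was -10.8 points without the testis and polyadenylated Hist genes (Hist1h1t, Hist1h2aa, Hist1h2ba and Hist1h2bc). It was -13.0 points with H2afx counted among the replication-dependent genes. With libraries numbered 1 to 4 alone, a setting chosen after seeing the data, the medians were -0.85 and -0.24. Over the 17 histone genes with values in full, 269 recomputed differences kept their direction and 3 changed it, H2afy at 0.0278 and Hist1h4b at 0.0364 without HIP30 (lowest without HIP3, at -0.22 and -0.55), and H2afy at 0.0575 with libraries numbered 1 to 4. Of the other 8 tested histone genes, Hist1h2af and Hist1h4m also changed sign without HIP30, at 0.37 and 0.02. The cause was not tested. No paired analysis was possible because the groups share no replicate number. Depth limits the genes without a read in HIP30 to 0.198 CPM, and with 3 libraries per group the tests depend on the spread within HIP.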
